A study of Mus musculus with 2 samples.

Results

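The genes described here are 10 genes by which the heart takes up fatty acids: the lipase system of the capillary wall (Lpl, Gpihbp1, Angptl4), the lipoprotein receptor Vldlr, the membrane proteins Cd36, Slc27a1 and Slc27a4, and the cytosolic carriers Fabp3, Fabp4 and Fabp5. They were taken by gene symbol from the 55536 annotated genes of the tables, and all 10 were found. Total RNA of heart was sequenced in 1 group of 2 libraries from female B6CASTF1/J mice, first-generation crosses between the strains C57BL/6J and CAST/EiJ, aged 14 days, a suckling age at which milk supplies much fat. The input was 300 ng of RNA a library, ERCC spike-ins were added, and neither carries a treatment or a further allele. The labels give both libraries the same donor and a shared description that can be read as a pool of 3 females, but a different animal number each, so the spread between the libraries may be partly technical. With 2 libraries of 1 condition there is no comparison of groups and no test across samples. The results are levels, relations between the genes, and how far the libraries lay apart.

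Triglyceride reaches the heart in lipoprotein particles of the blood. Lipoprotein lipase, made by the muscle cells, is carried by GPIHBP1 to the capillary surface, where it releases fatty acids, and ANGPTL4 inhibits it. CD36 and the SLC27 proteins move fatty acids into the cells, where FABP proteins carry them in the cytosol and acyl-CoA synthetases activate them. Since whole heart was sequenced, fewer cells of a type and less RNA per cell cannot be told apart.

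Replicate 1 held 36404376 expected counts (estimated reads per gene) and replicate 2 held 34569708. The heart label was checked on 6 cardiomyocyte markers, all present, which summed to 22826 TPM in replicate 1 and 23652 TPM in replicate 2 (TPM is a level per length, scaled to the same sum in every library). All 9 endothelial markers were present too, at a sum of 483 and 479.5 TPM. Markers of other tissue differed between the libraries: Scgb1a1, a secreted protein of the airway, reached 97.6 TPM in replicate 1, against 5.96 in replicate 2, and the 3 erythroid markers summed to 24081 and 18475 TPM.

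Together the 10 genes made up 0.524% of the expected counts of annotated genes in replicate 1 and 0.491% in replicate 2, and their summed level was 4535 and 4434 TPM. Per length, levels spanned a wide range. Fabp3 ranked 14 among 22015 protein-coding genes outside the mitochondrial genome, Cd36 ranked 63, Lpl 66 and Fabp4 112, while Angptl4 ranked 4349 and Slc27a4 6214. All 10 were above 1 TPM and had enough reads in both libraries for the comparison between libraries given further down.

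Among the genes of lipolysis, Lpl, the lipase itself (ENSMUSG00000015568.16, chromosome 8, 68880491 to 68907448, mm10), was at 719 TPM in replicate 1 and 601 TPM in replicate 2, a mean of 659.9 ± 83.02 (SD, n = 2). Its 70456 and 56166 expected counts were the most of any of the 10, since its transcript is longer than that of Fabp3. Gpihbp1, the protein that binds the lipase and carries it across the endothelium (ENSMUSG00000022579.10, chromosome 15, 75596628 to 75599481), was at 79.2 and 53.0 TPM, a mean of 66.1 ± 18.5. Lpl thus stood above its carrier 9.08-fold in replicate 1 and 11.3-fold in replicate 2, a log2 ratio of 3.34 ± 0.23 (SD, n = 2). Angptl4, the secreted inhibitor of the lipase (ENSMUSG00000002289.16, chromosome 17, 33773750 to 33781830), was low and differed between the libraries, at 8.56 TPM in replicate 1 and 20.5 TPM in replicate 2. Its ratio to Lpl therefore had no common value: Lpl was 83.9-fold above Angptl4 in replicate 1 and 29.3-fold above it in replicate 2.

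The related lipases had few reads. Endothelial lipase, Lipg, had 0 expected counts in replicate 1 and 1 in replicate 2, and hepatic lipase, Lipc, had 7 and 5. No ratio of Lpl to Lipg was formed, since Lipg lay under the 3 counts that a count of 0 allows. Of the 11 genes of the lipase list, which holds these lipases, the proteins that fold or cleave LPL, and its regulators, 5 reached 1 TPM. Furin, a protease, was at 53.2 and 47.7 TPM, Pcsk6, a protease of the same family, at 29.2 and 25.6, and Sel1l, which with Lmf1 is needed for the folding of LPL, at 23.3 and 23.5. Lmf1 was at 11.7 TPM in both libraries (11.73 and 11.65). Regulators that the liver secretes had few or no reads here. Apoc1, an apolipoprotein that inhibits LPL, was the highest of them at 3.74 and 4.32 TPM, with 35 and 39 counts. Angptl8 and Apoa5 had 1 count each in replicate 1 and 0 in replicate 2, the LPL activator Apoc2 had 3 and 0, and its inhibitor Apoc3 had 0 in both.

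Vldlr, the receptor that binds triglyceride-rich lipoproteins (ENSMUSG00000024924.14, chromosome 19, 27216484 to 27254231), was nearly equal in the libraries at 71.2 and 72.3 TPM, a mean of 71.75 ± 0.820. Lrp8, a close relative, was low in this tissue at 0.400 and 0.770 TPM. Of the 6 other lipoprotein receptors listed, 4 reached 1 TPM. The 3 highest were Lrp1 at 43.9 and 35.9 TPM, the HDL receptor Scarb1 at 32.4 and 29.7, and Sorl1 at 4.26 and 4.23.

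At the membrane, Cd36, the main translocase of long-chain fatty acids (ENSMUSG00000002944.15, chromosome 5, 17781690 to 17888801), was at 734 and 613 TPM, a mean of 674 ± 85.3. The fatty acid transport protein Slc27a1 (ENSMUSG00000031808.7, chromosome 8, 71568882 to 71587302) was at 63.3 and 68.7 TPM, a mean of 66.0 ± 3.86, and Slc27a4 (ENSMUSG00000059316.2, chromosome 2, 29802634 to 29817522) at 8.35 and 9.43 TPM, a mean of 8.89 ± 0.764. Cd36 exceeded Slc27a1 by 11.6-fold in replicate 1 and 8.93-fold in replicate 2. Within its own family Slc27a1 led in both libraries. It made up 86.5% ± 0.326 (SD, n = 2) of the summed level of the 6 Slc27 genes, and Slc27a4 11.6% ± 0.276. The ratio of these genes was the most alike between the libraries of the 7 formed, 7.58-fold and 7.29-fold (log2 ratio 2.89 ± 0.04). The other 4 members of the family were under 1 TPM. Slc27a6, a family member known in human heart, had 5 and 17 counts here, and the liver form Slc27a5 had 0 and 1.

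Proteins that act with CD36 at the membrane were all read (6 of 6 at 1 TPM or more). Got2, a mitochondrial aminotransferase that also binds fatty acids at the membrane, was at 331 and 326 TPM, Cav1, the coat protein of caveolae, at 187 and 175, and Cavin1, another caveolar protein, at 142 and 158. Among the 7 synthetases that couple fatty acids to coenzyme A, 4 reached 1 TPM and a single gene dominated. Acsl1 was at 354 and 391 TPM, against 5.21 and 6.04 TPM of Acsl5 and 5.02 and 4.66 TPM of Acsl4.

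Of the cytosolic carriers, Fabp3, the form of heart and skeletal muscle (ENSMUSG00000028773.8, chromosome 4, 130308595 to 130315463), was at 2310.1 and 2531 TPM, a mean of 2421 ± 156. Fabp4, the form of fat cells and capillary endothelium (ENSMUSG00000062515.3, chromosome 3, 10204088 to 10208576), was at 488 and 411 TPM, a mean of 449.8 ± 54.4. Fabp5, the epidermal form, which endothelium also makes (ENSMUSG00000027533.10, chromosome 3, 10012548 to 10016607), was at 53.7 and 53.2 TPM, a mean of 53.4 ± 0.361. Fabp3 was lower and Fabp4 higher in replicate 1 than in replicate 2, so their ratio was 4.73-fold in replicate 1 and 6.15-fold in replicate 2. Fabp3 exceeded Fabp5 by 43.0-fold and 47.6-fold, and Fabp4 exceeded Fabp5 by 9.10-fold and 7.74-fold.

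These 3 carriers held nearly all the level of their family. Fabp3 made up 82.7% ± 2.47 of the sum over 10 family members, Fabp4 15.4% ± 2.39 and Fabp5 1.83% ± 0.0757. Of the 7 others, Fabp1 (liver), Fabp2 (intestine), Fabp6 (ileum) and Pmp2 (myelin) had 0 counts in both libraries. Fabp7, the form of brain, had 16 in each and was the highest of the 7 at 0.810 and 0.840 TPM. The coding sequences of the 3 carriers are 133, 132 and 135 codons long in Fabp3, Fabp4 and Fabp5, and 65.1% of aligned bases are the same in Fabp3 and Fabp4, 57.3% in Fabp3 and Fabp5 and 60.6% in Fabp4 and Fabp5. Near copies exist elsewhere in the genome for Fabp3 and Fabp5 and for none of the other 8 genes (at least 200 aligned bases of 90% identity in another annotated transcript). The pseudogene Fabp3-ps1 matches Fabp3 at 99.3% of 402 aligned bases. It was given 162 and 149 expected counts, 0.345% and 0.300% of those of Fabp3. Of 5 such copies of Fabp5, Gm6166 (98.3% of 409 aligned bases) was given 185 and 196 counts, and the 5 together 12.9% and 14.1% of the counts of Fabp5. The expected counts of Fabp3 and Fabp5 were not whole numbers, as happens where reads are divided between genes, so the level of Fabp5 is uncertain by about this share. The other quantification put 0 TPM on Gm6166 in both libraries.

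**Figure D1:**
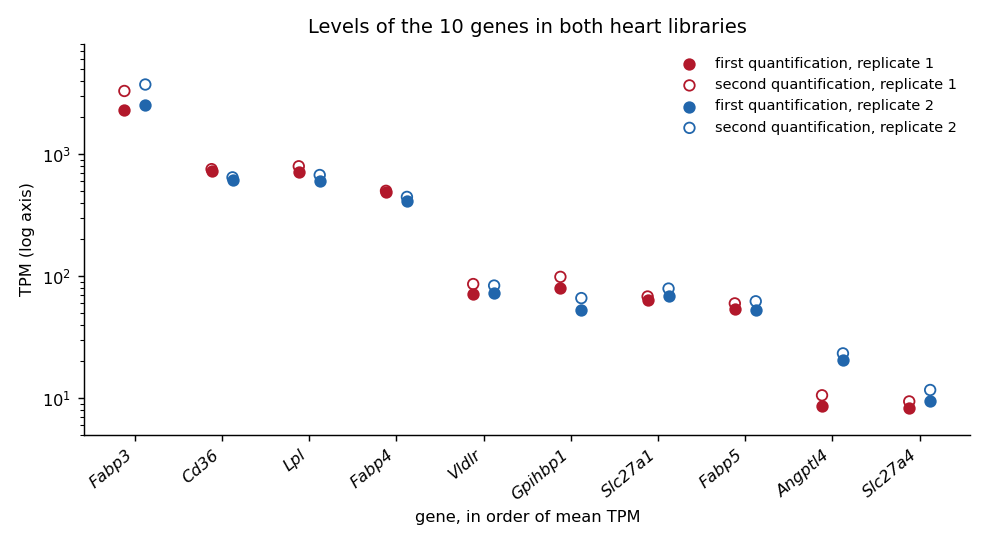
Levels of the 10 genes in TPM on a log axis, in order of mean TPM. Filled points are the first quantification and open points the second, red for replicate 1 and blue for replicate 2. Fabp3 stands alone at the top at 2310.1 and 2531 TPM, and Angptl4 is the gene whose libraries lie farthest apart, at 8.56 and 20.5 TPM.

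In order of mean level the genes were Fabp3, Cd36, Lpl, Fabp4, Vldlr, Gpihbp1, Slc27a1, Fabp5, Angptl4 and Slc27a4. Neighbours in this order were held to be apart only where the lower library of the higher gene lay above the higher library of the lower gene. That was so for 5 of the 9 neighbour pairs. Fabp3 was apart from Cd36, Lpl from Fabp4, Fabp4 from Vldlr, Slc27a1 from Fabp5 and Fabp5 from Angptl4. Cd36 and Lpl overlapped, as did Vldlr with Gpihbp1, Gpihbp1 with Slc27a1, and Angptl4 with Slc27a4. The second quantification gave the same order with Lpl and Cd36 exchanged, and the same 5 pairs were apart. Its levels were higher than those of the first for every one of the 10 genes, by 1.04-fold (Cd36) to 1.45-fold (Fabp3), beside a median of 1.19-fold over all genes of at least 1 TPM. It uses shorter effective lengths. The single transcript of Fabp3 is 823 bases long. Its effective length was 724 bases in the first quantification, and 488 and 489 bases in replicates 1 and 2 in the second. For Vldlr-207, the leading transcript of Vldlr, it was 7872 bases in the first and 7636 and 7637 bases in the second. The level of Vldlr was 1.18-fold higher in the second quantification. Whether effective lengths account for the higher levels was not tested.

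The libraries were compared by a rule of size. A call needed 3 things: a change of 1.5-fold or more in TPM + 1 once the median over all genes had been subtracted, a mean of 50 or more expected counts, and deposited 95% intervals without overlap. Differences are given as replicate 1 minus replicate 2. Of 12876 genes with enough counts, 1.65% were called, 1.30% higher in replicate 1 and 0.357% higher in replicate 2. Of the 10 genes, 2 were called, in opposite directions. Gpihbp1 was higher in replicate 1 and Angptl4 higher in replicate 2. The median absolute difference was 0.20 over the 10 genes and 0.11 over all genes with enough counts.

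Angptl4 differed by -1.14 on this scale, more than 99.6% of the genes with enough counts. Its level was 2.40-fold higher in replicate 2 than in replicate 1, with 467 expected counts in replicate 1 and 1092 in replicate 2. Scaled to the counts of annotated genes, replicate 1 held 0.406 times the reads of replicate 2 (95% exact counting interval 0.363 to 0.453, which covers counting error only). The second quantification listed Angptl4 at 10.5 TPM in replicate 1 and 23.2 TPM in replicate 2.

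Gpihbp1 only just met the rule. Its difference was 0.60 where the rule asks for 0.58, and its TPM ratio before the median was removed was 1.49, so that without this centring it was not called. Its scaled counts were 1.502 times as high in replicate 1 (1.39 to 1.62). Cd36, Lpl and Fabp4 were also higher in replicate 1, by 0.28, 0.28 and 0.27, and the scaled counts of each were 1.15 to 1.19 times as high. These differences were larger than those of 84.2% to 85.4% of the genes with enough counts, but none met the rule. The other 5 genes differed by between -0.13 (Slc27a4) and 0.04 (Fabp5), and Vldlr by less than 0.01.

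**Figure D2:**
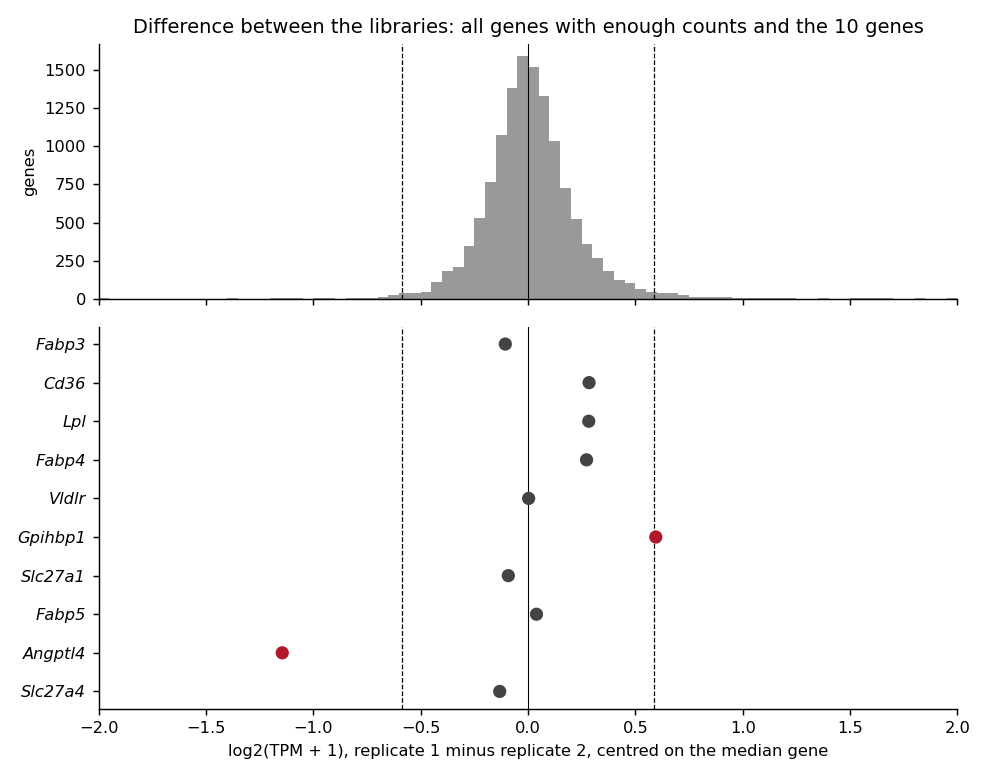
Difference between the libraries in log2(TPM + 1), replicate 1 minus replicate 2, after the median was removed. The upper panel counts the 12876 genes with enough counts in bins, with values past the axis placed in the end bins, and the lower panel shows the 10 genes, red where called. Dashed lines mark 1.5-fold. Gpihbp1 lies just past the line at 0.60 and Angptl4 well past it at -1.14.

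Markers of endothelium, fat cells, cardiomyocytes and fibroblasts differed less than Gpihbp1 did. None of the 9 endothelial markers was called, and their differences ran from -0.28 (Kdr) to 0.24 (Esam), with a median of 0.11. The highest were Egfl7 at 99.4 and 109.7 TPM and Cdh5 at 101 and 93.4 TPM. Among 6 adipocyte markers, whose sums were 60.2 and 57.9 TPM, Cfd was at 32.3 and 28.3 TPM and Plin1 at 10.4 and 11.4 TPM. Of the 6, 4 had enough counts for a call, with differences from -0.24 (Adipoq) to 0.21 (Cfd), and none was called. None was at 0, the lowest being Lep at 26 and 14 counts. Fat cells hold Fabp4, Cd36, Lpl and Angptl4 too. The brown fat markers Ucp1 and Cidea were at 32.6 and 47.8 TPM and at 32.5 and 39.9 TPM, lower in replicate 1 as Angptl4 was, with differences of -0.51 and -0.26, neither of them called. The 6 cardiomyocyte markers lay between -0.11 and 0.15, led by Myh6 (10296 and 10478 TPM) and Myl2 (6897 and 7564). The 5 fibroblast markers lay between -0.12 and 0.13, led by Col1a1 (231 and 233 TPM) and Dcn (185 and 172).

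Other lists held larger differences. The 3 erythroid markers were all higher in replicate 1, by 0.39 to 0.54, none of them called, with Hbb-bs at 12978 and 10050.2 TPM and Hba-a1 at 10905 and 8286. Of 5 airway and lung markers, Scgb1a1 and Scgb3a2 were called, Scgb3a2 at 41.4 and 2.35 TPM. Sftpa1 had 43 counts in replicate 1 and 2 in replicate 2, and Sftpb had 14 and 1. Sftpc alone went the other way, with 0 counts in replicate 1 and 16 in replicate 2. Of 5 macrophage markers only Lyz2 was called, at 38.9 and 25.9 TPM. Its difference was 0.60, like that of Gpihbp1, but the 5 markers ran from -0.08 (Cd68) to 0.60 with a median of 0.06. The second highest, C1qa, was at 16.4 and 13.6 TPM. The part of blood, airway, fat or macrophage RNA in the differences of the 10 genes was not tested.

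None of the 49 other genes of fatty acid uptake and lipase function in the 7 lists described so far and next was called. Only 27 of them had enough counts for a call. Of all genes with enough counts 1.65% were called, so no call among these 27 is near the common share. The transcriptional and signalling regulators were read in full (8 of 8 at 1 TPM or more). Vegfb, a growth factor reported in mice to raise endothelial fatty acid uptake, was at 129.5 and 128.6 TPM, the glucocorticoid receptor Nr3c1 at 27.2 and 33.2, and Tcf15, an endothelial factor that in mouse heart drives fatty acid transport genes, at 18.0 and 21.4. The nuclear receptors Pparg (9.03 and 6.45 TPM) and Ppara (21.2 and 15.7 TPM), which act on genes such as Angptl4, Cd36 and Lpl, were higher in replicate 1 by 0.45 and 0.44, under the rule.

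Among the 8 pathway lists, only that of genes known to respond to fasting or glucocorticoids held called genes. Of 10 such genes, 9 were called: replicate 1 was the higher library for 8, replicate 2 for 1. Higher in replicate 1 were the glucocorticoid targets Cdkn1a (43.9 TPM in replicate 1 and 11.8 in replicate 2), Fkbp5 (15.5 and 4.53), Per1 (41.9 and 14.5) and Cebpd (6 and 2.08). Sgk1 (50.3 and 29.98), Tsc22d3 (107 and 64.5), Zbtb16 (60.4 and 36.8) and Klf9 (62.7 and 38.9) were too. The mitochondrial protein Ucp3, a target of fatty acid receptors like Angptl4, was the gene with the higher level in replicate 2. It had 20.9 TPM in replicate 1 and 37.6 TPM in replicate 2, a difference of -0.79. Pdk4, a kinase that spares glucose and responds to the same receptors, was not called at 246 and 265 TPM. Angptl4, itself described as a target of both PPAR and glucocorticoid receptors, was higher in replicate 2, as Ucp3 was. The 8 other called genes were higher in replicate 1, as were Ppara and Pparg, which stayed under the rule. Why these genes differed was not tested. The list of 10 genes was drawn up with earlier results of these libraries known, so its count is a description.

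**Figure D3:**
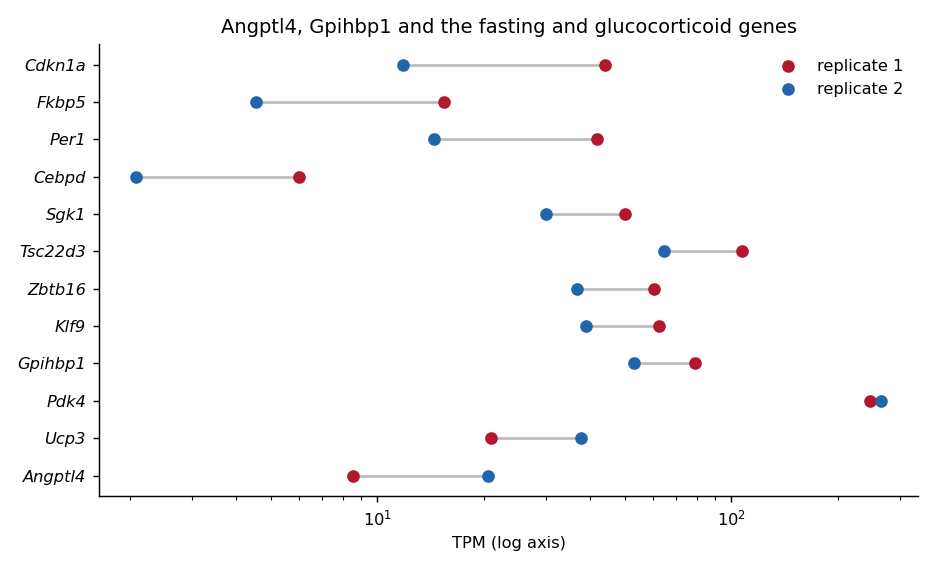
Levels of Angptl4, Gpihbp1 and the 10 fasting and glucocorticoid genes in TPM on a log axis, red for replicate 1 and blue for replicate 2, joined by a grey line for each gene. Ucp3 and Angptl4 have their blue point clearly to the right, while Gpihbp1 and 8 of the listed genes have the red point to the right.

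The transcripts of each gene were compared next, in shares of the gene's TPM. The 10 genes have 44 annotated transcripts, and Fabp3 has 1. Of the other 9 genes, all had the same leading transcript in both libraries, and 8 had the same one in both quantifications, Cd36 being the exception. Shares below are given either per library or as a mean over the libraries ± SD (n = 2), the first quantification before the second.

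For Angptl4 the larger share fell to a transcript that the annotation marks for nonsense-mediated decay. Angptl4-202 held 82.97% and 81.1% in replicates 1 and 2 by the first quantification and 70.9% and 77.2% by the second. Angptl4-201, which encodes the full protein of 410 codons, held 14.6% and 16.3% by the first and 19.6% and 22.8% by the second. So both transcripts were lower in replicate 1, Angptl4-202 at 7.10 and 16.6 TPM and Angptl4-201 at 1.25 and 3.35 TPM. Within the coding region they differ only where exon 3 starts. This exon spans chr17:33780530-33780647 in Angptl4-201 and chr17:33780530-33780643 in Angptl4-202 (mm10, minus strand), so the first has 4 more bases. Without them the reading frame shifts and ends after 154 codons. The 2 sequences are shown because these 4 bases are the whole difference in coding. Each runs from the last 24 bases of the exon 2 into exon 3, over chr17:33780620-33780806 with the intron left out, on the minus strand. Capitals mark the 4 bases in Angptl4-201, and the first stop codon in frame in Angptl4-202.
Angptl4-201: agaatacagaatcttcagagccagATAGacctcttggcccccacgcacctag
Angptl4-202: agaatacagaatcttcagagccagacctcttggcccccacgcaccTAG

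The annotated transcripts also differ in length. All 1859 bases of Angptl4-202 lie in Angptl4-201, which has 1449 more: 287 at the 5′ end, 4 at the start of exon 3 and 1158 at the 3′ end. The shares of both thus rest on reads over those ends as well as on reads across the junction. The tables give no reads per junction, and the share of the 4-base form itself was not tested.

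Vldlr was divided between forms that differ in a coding exon. Vldlr-207 held 53.7% and 50.8% by the first quantification and 48.5% and 49.7% by the second, and Vldlr-208 30.5% and 35.5% by the first and 27.0% and 33.5% by the second. Of the annotated transcripts Vldlr-207 alone holds exon 16 as an exon with these ends (chr19:27246593-27246676, plus strand). Its 84 bases encode the region of the receptor that carries O-linked sugars. Vldlr-207 encodes 873 codons and Vldlr-208 encodes 845, the 28 codons of this exon being the difference. The form with the exon was set against the 3 transcripts that join its neighbours without it. It made up 54.4% ± 1.55 by the first quantification and 52.4% ± 0.747 by the second. These near-equal parts count Vldlr-201, a transcript marked for nonsense-mediated decay, on the side without the exon. Set against Vldlr-208 alone, Vldlr-207 had the larger share in both libraries and by both quantifications. Vldlr-204, a transcript with a retained intron that held 1.65% by the first quantification, was counted on neither side. The exon is shown in capitals with 15 bases of the neighbouring exons on each side, over chr19:27245667-27247024 with introns left out, and below it the same place in Vldlr-208.
Vldlr-207: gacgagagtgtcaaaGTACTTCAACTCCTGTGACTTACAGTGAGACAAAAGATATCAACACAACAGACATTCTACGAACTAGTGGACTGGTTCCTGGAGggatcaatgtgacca
Vldlr-208: gacgagagtgtcaaaggatcaatgtgacca

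Threonine and serine, the residues to which O-linked sugars attach, are encoded by 10 of the 27 whole codons in the exon, 37.0%, and by 111 of the 873 codons of Vldlr-207 as a whole, 12.7%. The remaining transcripts held less. Vldlr-201, which lacks 65 bases of a coding exon and is marked for nonsense-mediated decay, held 12.5% and 8.99% by the first quantification and 14.3% and 11.8% by the second, and it lacks exon 16 as well. Vldlr-202, without exon 16 and without a further coding exon of 123 bases, was listed at 0% by the first and 1.30% ± 0.702 by the second. As with Angptl4, the ends differ too: Vldlr-207 is 7971 bases long and Vldlr-208 3855, and 4453 bases of Vldlr-207 are not in Vldlr-208, so its share rests on more than the reads over the exon.

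**Figure D4:**
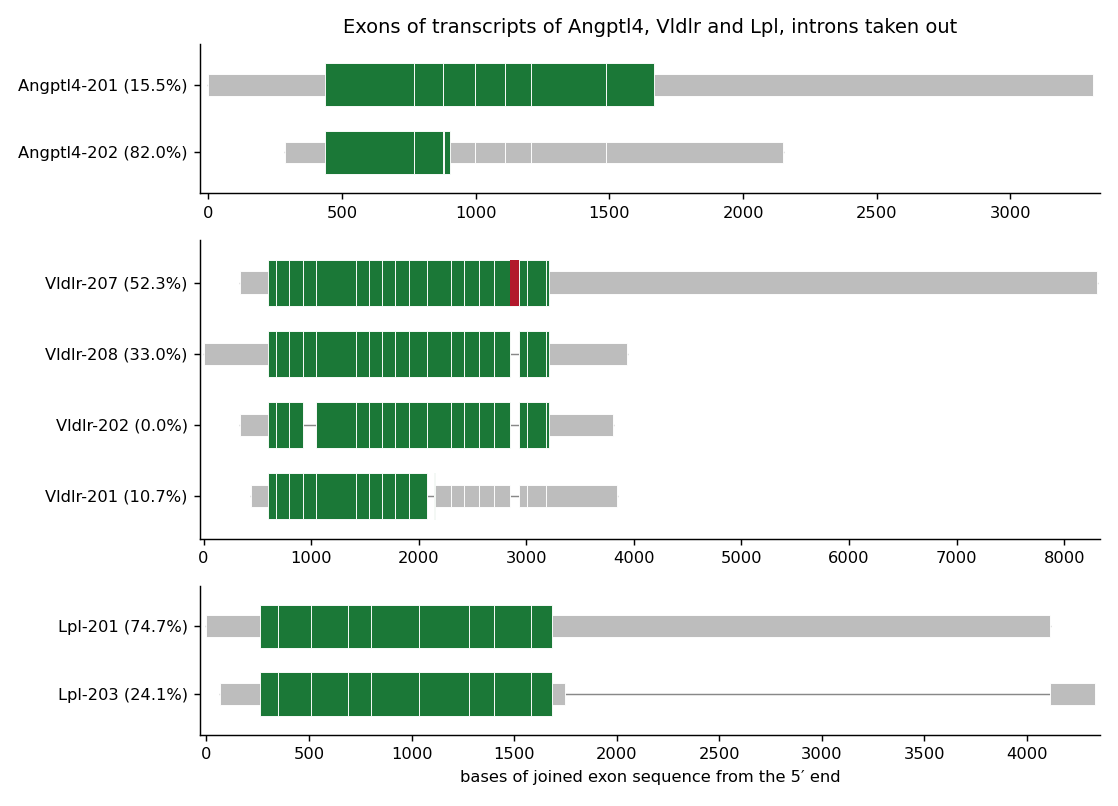
Exons of transcripts of Angptl4, Vldlr and Lpl drawn to scale with introns taken out, in bases of joined exon sequence from the 5′ end. Coding parts are tall and green, untranslated parts low and grey, exon 16 of Vldlr red, and a thin line stands where a transcript lacks bases that another has. The number beside each name is its mean share of the gene's TPM in the first quantification. Angptl4-202 (82.0%) has a short coding part, and Lpl-203 (24.1%) has the same coding part as Lpl-201 (74.7%).

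For Lpl the label of decay has another basis. Lpl-201 held 75.6% and 73.8% by the first quantification and 81.04% and 80.9% by the second. Lpl-203, annotated as a target of nonsense-mediated decay, held 22.99% and 25.2% by the first and 16.7% and 17.6% by the second. Both have the same coding sequence of 474 codons. They differ in the 3′ untranslated region, where Lpl-203 joins to a further exon of 216 bases and lacks most of the long last exon of Lpl-201. Together the transcripts with this coding sequence held 98.8% ± 0.283 of Lpl by the first quantification and 98.1% ± 0.467 by the second.

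Cd36 transcripts differ in their first exon. The annotation has 3 of these: that of Cd36-203 and Cd36-205, that of Cd36-202 and Cd36-204, and that of Cd36-201 and Cd36-206. Their outermost starts, those of Cd36-205, Cd36-204 and Cd36-206, lie 59907, 20898 and 6823 bases upstream of the start codon in the genome. In the first quantification the most distant exon held 76.2% ± 0.00707 of the level, the middle one 11.5% ± 0.0566 and the nearest 12.3% ± 0.0495. The second quantification gave 26.6% ± 4.05, 54.3% ± 3.45 and 19.1% ± 0.607. The libraries were close to each other within each quantification, while the quantifications put different first exons in the lead, so the first exon that leads cannot be told from these tables. Cd36-203 changed most, with 44.1% by the first quantification and 2.63% by the second, and Cd36-202 held 5.82% and 46.7%. Less depends on this for the protein. Transcripts with the complete coding sequence of 472 codons held 67.9% ± 1.71 by the first quantification and 76.0% ± 2.11 by the second. The rest was Cd36-205, a short transcript of 702 bases with an incomplete coding sequence.

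Slc27a1 was divided among several transcripts. Its transcripts with the complete coding sequence of 646 codons, Slc27a1-207 and Slc27a1-201, held 38.1% ± 0.587 by the first quantification and 49.9% ± 2.41 by the second. Transcripts with a retained intron, Slc27a1-205 and Slc27a1-202 chief among them, held 43.8% ± 2.14 and 35.8% ± 4.77. A short noncoding transcript, Slc27a1-208, held 10.6% and 14.3%. The level of Slc27a1 as a gene therefore counts much RNA that does not encode the complete protein by this annotation. In contrast Slc27a4-201 held 94.8% ± 1.10 by the first quantification and 89.8% ± 3.70 by the second. The share of Slc27a1 in its family and its ratio to Slc27a4, given above, count all of its RNA. By the first quantification Slc27a1-207 was at 13.4 and 17.3 TPM and Slc27a1-201 at 10.5 and 9.16. Slc27a4-201 was at 7.85 and 9.01 TPM.

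Gpihbp1-201, which encodes 228 codons, held 77.6% ± 0.552 and 69.7% ± 0.301. Gpihbp1-204, with a shorter coding sequence of 123 codons, held 9.38% and 10.5%, and Gpihbp1-205, with a retained intron, 4.10% and 11.4%. The share of Gpihbp1-201 was alike in both libraries (77.2% and 78.0% by the first quantification), so the difference of the gene lay in this transcript too, at 61.1 TPM in replicate 1 and 41.4 TPM in replicate 2. Fabp4-201 held 98.2% ± 0.0495 and 93.4% ± 0.375, and Fabp5-201 96.6% ± 0.297 and 93.0% ± 0.194. The rest of both was a transcript with a retained intron.

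**Figure D5:**
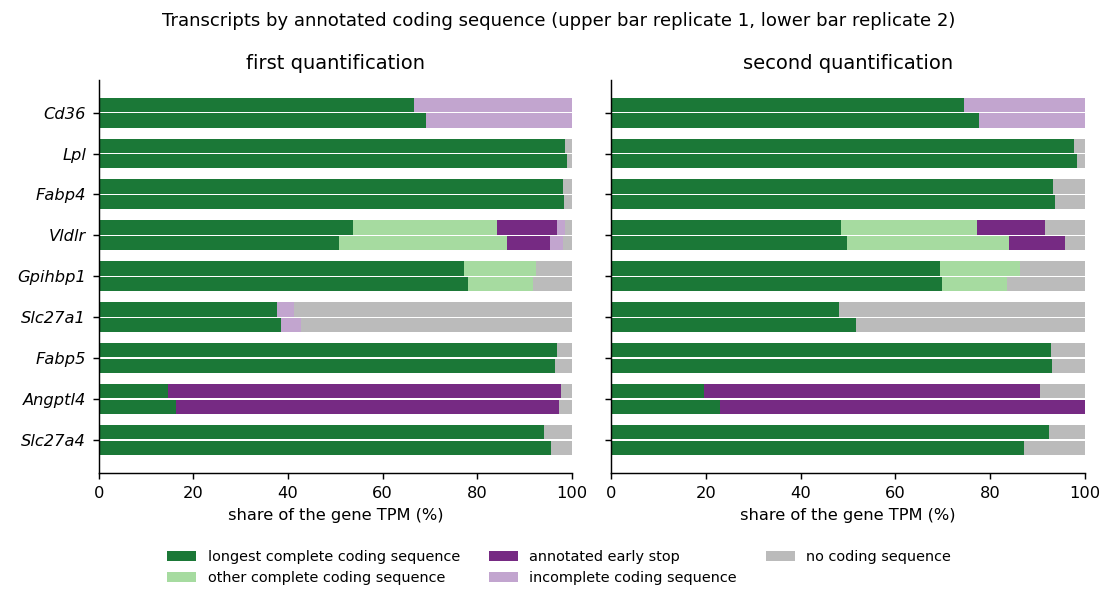
Share of each gene's TPM, in percent, by the annotated coding sequence of its transcripts, for the 9 genes with more than 1 transcript. The left panel is the first quantification and the right panel the second, and each gene has replicate 1 above replicate 2. Transcripts with the longest complete coding sequence (dark green) held 98.8% of Lpl and 15.5% of Angptl4 in the mean of the first quantification.

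Reads from overlapping genes touch only Fabp3 among the 10. Zcchc17 and Gm10570, both on the other strand, overlap it by 81 and 80 bases. Zcchc17 was at 8.95 and 10.03 TPM beside 2310.1 and 2531 TPM of Fabp3. No gene is named as having a pattern across samples like that of these 10, because 2 libraries of 1 condition give no such pattern.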

How the data were processed

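Total RNA-seq tables of 2 heart libraries were used. Per the readme files deposited with them, the assembly is mm10 and the annotation GENCODE M21. For the programs, their versions and the handling of CAST/EiJ alleles, nothing is stated (not given in the sources used). The authors' gene and transcript tables with RSEM column names (the first quantification) hold expected counts, not normalized, and TPM, per the file headers, TPM being scaled by effective length over all rows. Beside them stand a posterior mean TPM with its deposited 95% interval, which can lie below the TPM (2235 to 2276 beside 2310.1 for Fabp3 in replicate 1), and, per the file headers, each transcript's percent of its gene's TPM. The deposited tables with kallisto column names (the second quantification) hold estimated counts and TPM per transcript, which were summed per gene here.

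Annotated genes held 36197643 and 34358598 expected counts. A count of 0 was taken to allow a true mean of up to 3 counts, a limit that does not depend on depth. A chi-square of counts between the libraries (genes averaging 10 or more counts) came to 12.6 for each degree of freedom, so they are not the same library deposited again. The centring median was -0.03. In simulated data with counting error only, the rule of size found all 148 genes above 5 TPM that had planted 3-fold changes. The libraries themselves differed by more than counting error, and changes near 1.5-fold were not simulated. The simulation therefore does not show how sure a call such as that of Gpihbp1 is. Exact intervals are Clopper-Pearson. Annotation, transcript sequences and coding exons came from GENCODE M21, copies from blastn 2.17.0, coding identity from Biopython 1.88, TMM factors from edgeR 4.0.16 and size factors from DESeq2 1.42.0 in R 4.3.3. Expected counts were rounded for DESeq2. The rest used Python 3.11.15. Effective lengths were shorter than transcripts by 99 bases (first quantification) and about 335 (second). Named are all 10 genes, the 3 highest and every called gene of each of 8 pathway lists, the 2 highest of each of 8 marker lists, and transcripts of at least 10% of their gene, with further genes chosen after their values were seen. The genes and lists were chosen with earlier results of these data known. Some genes of these lists are not reported here.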

Additional observations from a re-analysis of the deposited data

How the results depend on the processing

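The calls of Gpihbp1 and Angptl4 were recomputed under 7 settings. Angptl4 met the rule in all of them. Gpihbp1 did not with a 2-fold threshold, nor without centring (0.57), each of which left 1 of the 10 genes called. Called genes in all numbered 401 in the second quantification without the interval rule (262 higher in replicate 1 and 139 in replicate 2), 320 with a pseudocount of 0.1 (96 higher in replicate 2), and 45 at 2-fold (39 and 6), beside 213 (167 and 46) as reported. No direction of a called gene among the 10 reversed.

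The summed level of the 10 genes, 4485 TPM, was 5744 in the second quantification, 10427 when scaled to protein-coding genes outside the mitochondrial genome, 4381 as posterior mean and 5077 as CPM. With no correction for length, 0 of the 10 genes kept their rank. In the second quantification the log2 ratios that moved by more than the SD were Fabp3/Fabp4 (2.89), Fabp3/Fabp5 (5.85) and Slc27a1/Slc27a4 (2.81). As CPM, those of Fabp3/Fabp5 (5.09), Fabp4/Fabp5 (2.90), Slc27a1/Slc27a4 (2.16) and Lpl/Gpihbp1 (5.57) did. All 7 ratios kept their sign in all settings tried. The leading transcript was the same in 8 of 9 genes in the second quantification. Leaving out either library moved no level, ratio or share by more than the SD, which 2 values cannot exceed by construction. No paired analysis was possible because there is 1 group. With 2 libraries the spread between animals is poorly known, and a gene with 0 counts may have a true mean of up to 3 counts.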
